A study of Mus musculus with 48 samples.

Results

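The genes described here are 60 components of the extracellular matrix of the mouse heart, chosen by gene symbol. They comprise collagens, basement membrane and elastic fibre proteins, adhesive and matricellular glycoproteins, small proteoglycans, enzymes that mature collagen, matrix proteases and the tissue inhibitors of metalloproteinases (TIMPs). A gene counted as measured where at least 1 of its array probes was detected (detection p under 0.05) on at least 6 of 48 arrays. This held for 53 of the 60 genes, out of 9811 measured genes in all, and 37 of the 53 were detected on all 48 arrays. Of the 7 other genes, Fbln5 and Fmod were detected on 0 arrays and Postn on 3, while Col6a3, Nid2, Fbn1 and Adamts2 had no probe named here. Each gene is represented by its brightest detected probe, and for 18 of the 53 genes a second, dimmer detected probe served as a check.

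RNA came from the left ventricular myocardium of male C57BL/6 mice, with 1 Illumina bead array per heart and 6 hearts in each of 8 groups. After 20 min of stabilization, the ischaemia-reperfusion (I/R) hearts of 8, 16, 32 and 48 weeks underwent 25 min of global ischaemia and 45 min of reperfusion. The normoxic hearts of the same 4 ages were perfused without interruption for the same time. All 48 hearts were excised and perfused in isolation (Langendorff mode), so no group stands for a heart in the living animal.

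The matrix of the ventricle is made mostly by fibroblasts, and vascular and endothelial cells add much of the basement membrane. Fibrillar collagens carry tension between muscle layers, collagen VI and the basement membrane tie cells to that network, and elastin with its microfibrils lets it recoil. Matricellular proteins such as SPARC and the CCN proteins regulate how cells bind and assemble matrix, and metalloproteinases, held in check by TIMPs, cut it. Collagen genes are transcribed strongly in growing animals and the deposited protein outlasts its messenger RNA by far, so that a transcript level does not measure how much matrix is present.

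The stretches of DNA just upstream of these genes' start sites are shown because 15 matrix genes were lower in older normoxic hearts, as described below. RefSeq promoter windows (build GRCm38.p6) were matched for 40 of the 60 genes and for 9 of those 15; Ccn2, Col1a1, Eln, Lamc1, Mfap5 and Mmp2 were not matched. The 250 bases upstream of the start site of 4 of them follow, written 5′ to 3′ on the strand of the gene. Capitals mark the letters of 5 motifs, searched on both strands: AP-1 (TGANTCA), the CCAAT box (CCAAT), the GC box (GGGCGG), the TATA box (TATAAA) and TEAD (GGAATG).
Col6a1 (chr10:76726045-76726294, strand −): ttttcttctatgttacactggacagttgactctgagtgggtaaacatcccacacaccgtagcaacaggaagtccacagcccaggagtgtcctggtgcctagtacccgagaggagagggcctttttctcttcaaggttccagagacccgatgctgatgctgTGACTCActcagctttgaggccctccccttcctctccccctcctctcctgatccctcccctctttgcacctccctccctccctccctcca
Col18a1 (chr10:77166531-77166780, strand −): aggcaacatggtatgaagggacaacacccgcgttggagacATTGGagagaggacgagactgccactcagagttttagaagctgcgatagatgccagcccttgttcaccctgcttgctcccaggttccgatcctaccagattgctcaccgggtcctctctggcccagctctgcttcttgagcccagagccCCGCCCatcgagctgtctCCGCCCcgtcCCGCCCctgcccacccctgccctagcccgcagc
Sparc (chr11:55420081-55420330, strand −): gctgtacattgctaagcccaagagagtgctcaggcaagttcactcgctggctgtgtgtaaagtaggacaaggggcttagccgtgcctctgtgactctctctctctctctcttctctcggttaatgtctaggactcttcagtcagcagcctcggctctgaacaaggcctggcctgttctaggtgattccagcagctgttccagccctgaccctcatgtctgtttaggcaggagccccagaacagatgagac
Vtn (chr11:78498870-78499119, strand +): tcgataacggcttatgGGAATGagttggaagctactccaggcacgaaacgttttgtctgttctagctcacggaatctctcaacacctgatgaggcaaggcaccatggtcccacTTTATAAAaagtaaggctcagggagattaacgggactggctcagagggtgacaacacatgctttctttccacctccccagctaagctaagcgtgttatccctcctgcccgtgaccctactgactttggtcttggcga
The AP-1 letters occurred in the window of Col6a1, GC and CCAAT boxes in that of Col18a1, TATA box letters (2 overlapping matches) and TEAD letters in that of Vtn, and none of the 5 in that of Sparc. Among 11 windows of the 9 matched genes, AP-1 letters were in 1, CCAAT boxes in 3, GC boxes in 3, TATA boxes in 1 and TEAD letters in 2. Over all 32851 windows the shares were 6.75% for AP-1, 33.8% for the CCAAT box, 32.7% for the GC box, 12.4% for the TATA box and 12.6% for TEAD. No motif was therefore present in most of the windows of the genes that were lower with age. Across all 45 windows of the 40 matched matrix genes, GC boxes were in 24 (53.3%), and the shares of the other 4 motifs were between 6.67% and 22.2%.

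Values are normalized log2 intensities, on which a difference of 1 is a factor of 2, and levels are not compared between genes because probes differ in brightness. All 8 cardiomyocyte markers were detected, with a median log2 level of 14.6, as were 10 of 10 endothelial markers and 8 of 12 fibroblast markers that are not matrix genes; lymphocyte markers were detected for 0 of 7. The arrays differed between treatments in quality measures. The RNA integrity number (RIN) averaged 7.87 ± 0.296 in I/R hearts and 8.50 ± 0.296 in normoxic hearts (SD, n = 24 each), and the median signal of undetected probes was 132.5 to 165.8 on I/R arrays and 111.3 to 129 on normoxic arrays, without overlap. In I/R hearts the mean RIN was 8.08, 8.03, 7.75 and 7.60 at 8, 16, 32 and 48 weeks, and in normoxic hearts 8.52, 8.75, 8.42 and 8.30. No slide, run or date is given, so a batch that follows treatment or age cannot be told apart from it. In whole tissue, fewer cells of a type and less RNA per cell cannot be told apart.

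In normoxic hearts, matrix genes were lower at 48 than at 8 weeks wherever they passed the test. The fibrillar collagen gene Col1a1 and the elastin gene Eln fell by about a factor of 2, and both chains of basement membrane collagen IV, collagen VI (Col6a1) and the gelatinase gene Mmp2 fell 1.41-fold to 1.62-fold. In all, 11 of 53 matrix genes were lower and 0 were higher (limma, adjusted p under 0.05 over all 9811 genes), whereas 1.64% of all genes were past the threshold (0.734% lower and 0.907% higher). The median log2 fold change was −0.19 over the 53 genes and 0.00 over all genes. In 9 of the 53 genes the 6 hearts of each age did not overlap, each time lower at 48 weeks, against 1.9% of all genes in either direction. Among genes detected on all 48 arrays, 9 of 37 matrix genes passed, against 2.18% of all such genes. RIN averaged 8.30 in the 48-week and 8.52 in the 8-week hearts, and with RIN as a covariate 10 of the 53 passed (share of all genes in that fit not given).

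**Figure D1:**
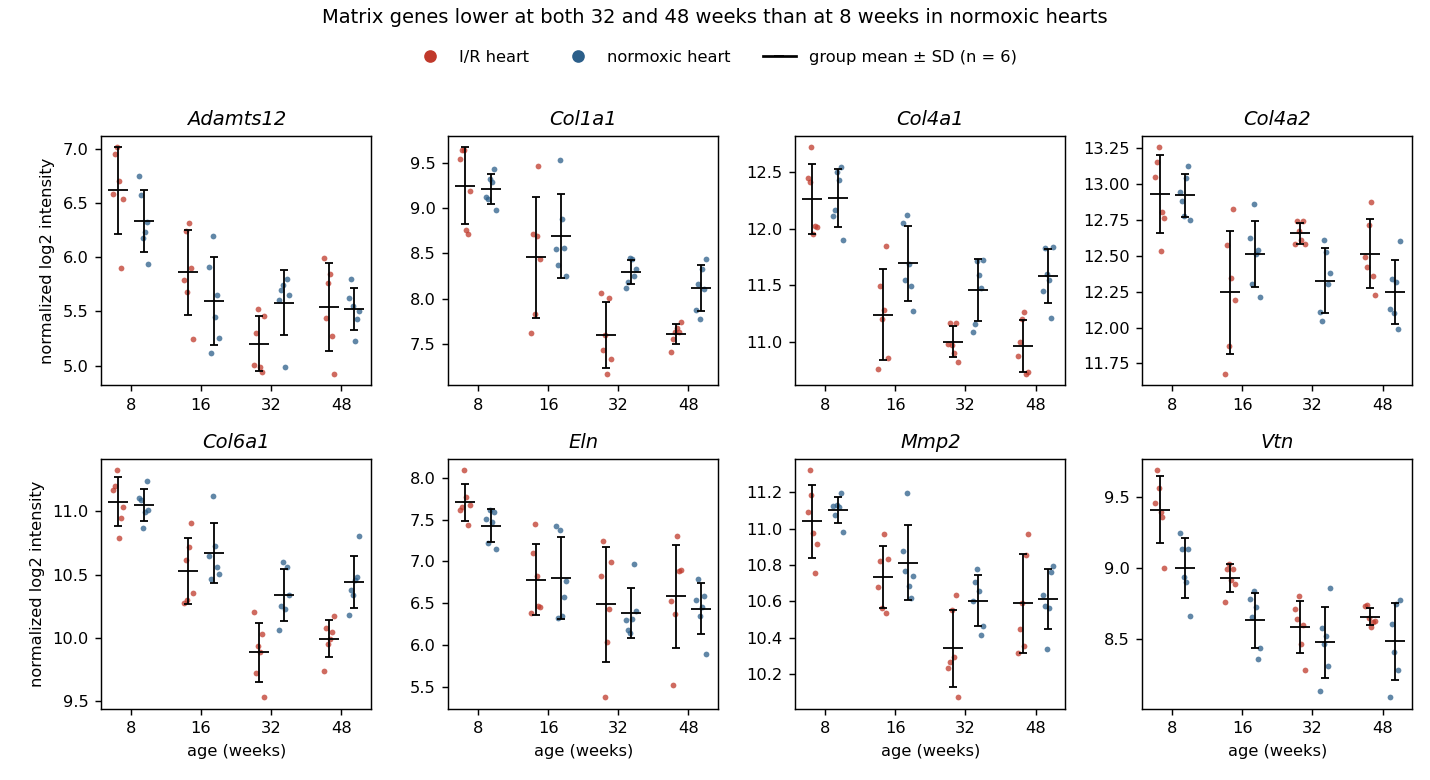
Normalized log2 intensity (y axis) of the 8 matrix genes that were lower at both 32 and 48 weeks than at 8 weeks in normoxic hearts, by age in weeks (x axis). Each point is a heart, I/R in red and normoxic in blue, and bars are the group mean ± SD (n = 6). In Col1a1 the 48-week hearts lie between 7.41 and 7.74 after I/R and between 7.77 and 8.43 when normoxic, below all 8-week hearts of the same treatment.

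Among the fibrillar collagens, Col1a1, which encodes the main chain of collagen I, had levels of 7.77 to 8.43 with a median of 8.14 in 48-week hearts, against 8.98 to 9.44 with a median of 9.21 in 8-week hearts. The hearts of the 2 ages did not overlap, and the log2 fold change was −1.10 ± 0.21 (SE, n = 6 per group, adjusted p = 0.00116). None of the other 4 fibrillar collagen genes passed. Col5a1, a chain of the collagen V that nucleates fibrils, came closest at −0.45 ± 0.13 (adjusted p = 0.072), with 48-week hearts at 8.26 to 8.72 with a median of 8.48 and 8-week hearts at 8.80 to 9.14 with a median of 8.90, again without overlap. Col3a1, the collagen III gene, was detected in 0 of 6 48-week and 4 of 6 8-week hearts (at least 1.05-fold lower, adjusted p = 0.346; second probe −0.51). Col1a2, the partner chain of Col1a1 in collagen I, was detected in 0 of 24 normoxic hearts, so that age could not be read from it there.

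Collagen VI forms beaded filaments around muscle cells, and its chain genes include the neighbours Col6a1 and Col6a2, as well as Col6a3, which had no probe named here. Col6a1 lay at 10.18 to 10.81 with a median of 10.42 in 48-week hearts, against 10.87 to 11.24 with a median of 11.05 in 8-week hearts, with no overlap. Its log2 fold change was −0.61 ± 0.12 (adjusted p = 0.00154), and the second probe gave −0.63 (adjusted p = 0.000964). Col6a2 gave −0.07 ± 0.17 (adjusted p = 0.979), with 48-week levels of 5.87 to 6.32 with a median of 6.19 overlapping the 8-week levels of 6.06 to 6.38 with a median of 6.20. Col8a1, a short-chain collagen of vessels, and Col14a1, which decorates fibrils, did not pass (−0.30 and −0.03); the second probe of Col14a1 gave −0.57 (adjusted p = 0.157).

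Of 11 basement membrane genes, 4 fell and 0 rose. The collagen IV genes Col4a1 and Col4a2 encode the chains of its commonest network. Col4a1 had 11.21 to 11.84 with a median of 11.58 in 48-week hearts, against 11.90 to 12.54 with a median of 12.30 in 8-week hearts (log2 fold change −0.69 ± 0.16, adjusted p = 0.00939). Col4a2 had 11.99 to 12.60 with a median of 12.22 in 48-week hearts, against 12.75 to 13.13 with a median of 12.92 in 8-week hearts (log2 fold change −0.67 ± 0.14, adjusted p = 0.00382). In both genes every 48-week heart lay below every 8-week heart. Col18a1, the source of the fragment endostatin, was likewise lower without overlap, at 6.88 to 7.26 with a median of 7.07 in 48-week hearts and 7.30 to 7.86 with a median of 7.76 in 8-week hearts (−0.62 ± 0.16, adjusted p = 0.0236, but above the threshold in 7 of 21 alternatives, up to 0.0696).

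Lamc1, the gamma chain shared by most laminins, fell by a smaller amount, averaging 8.65 ± 0.25 in 48-week hearts and 9.05 ± 0.15 in 8-week hearts (SD, n = 6 each). The hearts of the 2 ages overlapped, and the log2 fold change was −0.40 ± 0.09 (adjusted p = 0.0118, or 0.101 when just these 2 groups were fitted). The muscle laminin chain Lama2, the endothelial chain Lama4 and the beta chain Lamb2 gave −0.12, 0.02 and −0.16, with adjusted p of 0.645 to 0.996. Nidogen (Nid1), which links laminin to collagen IV, gave −0.35 ± 0.11 (adjusted p = 0.0949), and perlecan (Hspg2), the large proteoglycan of this layer, gave −0.32 ± 0.12 (adjusted p = 0.238). Col15a1, which anchors the basement membrane to fibrils, gave −0.57 ± 0.19 (adjusted p = 0.134), although it passed at 32 weeks.

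Elastin, Eln, was the elastic fibre gene that passed at 48 weeks. It ranged over 5.89 to 6.79 with a median of 6.49 in 48-week hearts, against 7.15 to 7.62 with a median of 7.49 in 8-week hearts, without overlap (−0.99 ± 0.24, adjusted p = 0.0176). Without replicate 6 of the 48-week hearts the adjusted p was 0.0622. The microfibril genes Mfap4 and Mfap5 had log2 fold changes of −0.86 ± 0.29 and −0.70 ± 0.22 with more spread among hearts (adjusted p = 0.149 and 0.113). The fibulins, which bridge elastin to cells and basement membrane, gave −0.22 for Fbln1 and −0.18 for Fbln2 (adjusted p = 0.456 and 0.565).

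Among 8 adhesive and matricellular genes, Sparc and Vtn fell. SPARC binds collagen and helps its assembly into fibrils; its gene lay at 5.76 to 6.40 with a median of 6.02 in 48-week hearts, against 6.40 to 7.04 with a median of 6.77 in 8-week hearts. These ranges met at 6.40 (−0.71 ± 0.15, adjusted p = 0.00333), and the gene was past the threshold neither without background correction nor in the authors' processed values (adjusted p up to 0.255). Vitronectin (Vtn), an adhesive glycoprotein, lay at 8.09 to 8.77 with a median of 8.51 in 48-week hearts, against 8.66 to 9.25 with a median of 9.03 in 8-week hearts (−0.52 ± 0.12, adjusted p = 0.00739, or 0.0535 when just these 2 groups were fitted). Fibronectin (Fn1), the SPARC relative Sparcl1, tenascin X (Tnxb), thrombospondin 1 (Thbs1), Ccn1 and Ccn2 had log2 fold changes between −0.20 and 0.25, with adjusted p of 0.782 or more.

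The small proteoglycans, which coat collagen fibrils and limit their width, did not pass at 48 weeks. Decorin (Dcn) lay at 13.45 to 13.80 with a median of 13.71 in 48-week hearts and at 13.43 to 13.85 with a median of 13.57 in 8-week hearts (0.08 ± 0.08, adjusted p = 0.892; second probe 0.12). Biglycan (Bgn), lumican (Lum) and the fibril-associated protein dermatopontin (Dpt) gave −0.17, 0.28 and 0.09. Enzymes and chaperones that mature collagen did not pass either: the collagen chaperone Serpinh1 gave −0.34 ± 0.10 (adjusted p = 0.0845), the lysyl oxidases Lox, Loxl1 and Loxl2, which cross-link collagen and elastin, gave −0.19, −0.38 and −0.15, and the prolyl hydroxylase subunit P4ha1 gave 0.12.

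Of 7 proteases, Mmp2 and Adamts12 passed. Mmp2, whose product cleaves denatured collagen and collagen IV, had 10.34 to 10.79 with a median of 10.61 in 48-week hearts, against 10.98 to 11.20 with a median of 11.12 in 8-week hearts, with no overlap (−0.49 ± 0.11, adjusted p = 0.00726). Adamts12, a metalloproteinase with thrombospondin repeats, was detected in 1 of 6 48-week hearts and 6 of 6 8-week hearts (−0.81 ± 0.19, adjusted p = 0.0104), but its second probe gave 0.07 (adjusted p = 0.996). The stromelysin Mmp3 had 0.64 ± 0.32 (adjusted p = 0.485), with 48-week levels of 6.84 to 8.03 with a median of 7.28 overlapping the 8-week levels of 5.63 to 7.09 with a median of 6.94. Mmp14, a membrane-bound activator of MMP2, the aggrecanases Adamts1 and Adamts5 and the cysteine protease Ctsk had log2 fold changes between −0.34 and 0.24 (adjusted p of 0.333 or more). None of the 4 TIMP genes passed: Timp1 gave 0.42 ± 0.31, Timp2 0.05 ± 0.10, Timp3 0.12 ± 0.18 and Timp4 −0.46 ± 0.47, with adjusted p of 0.766 or more.

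**Figure D2:**
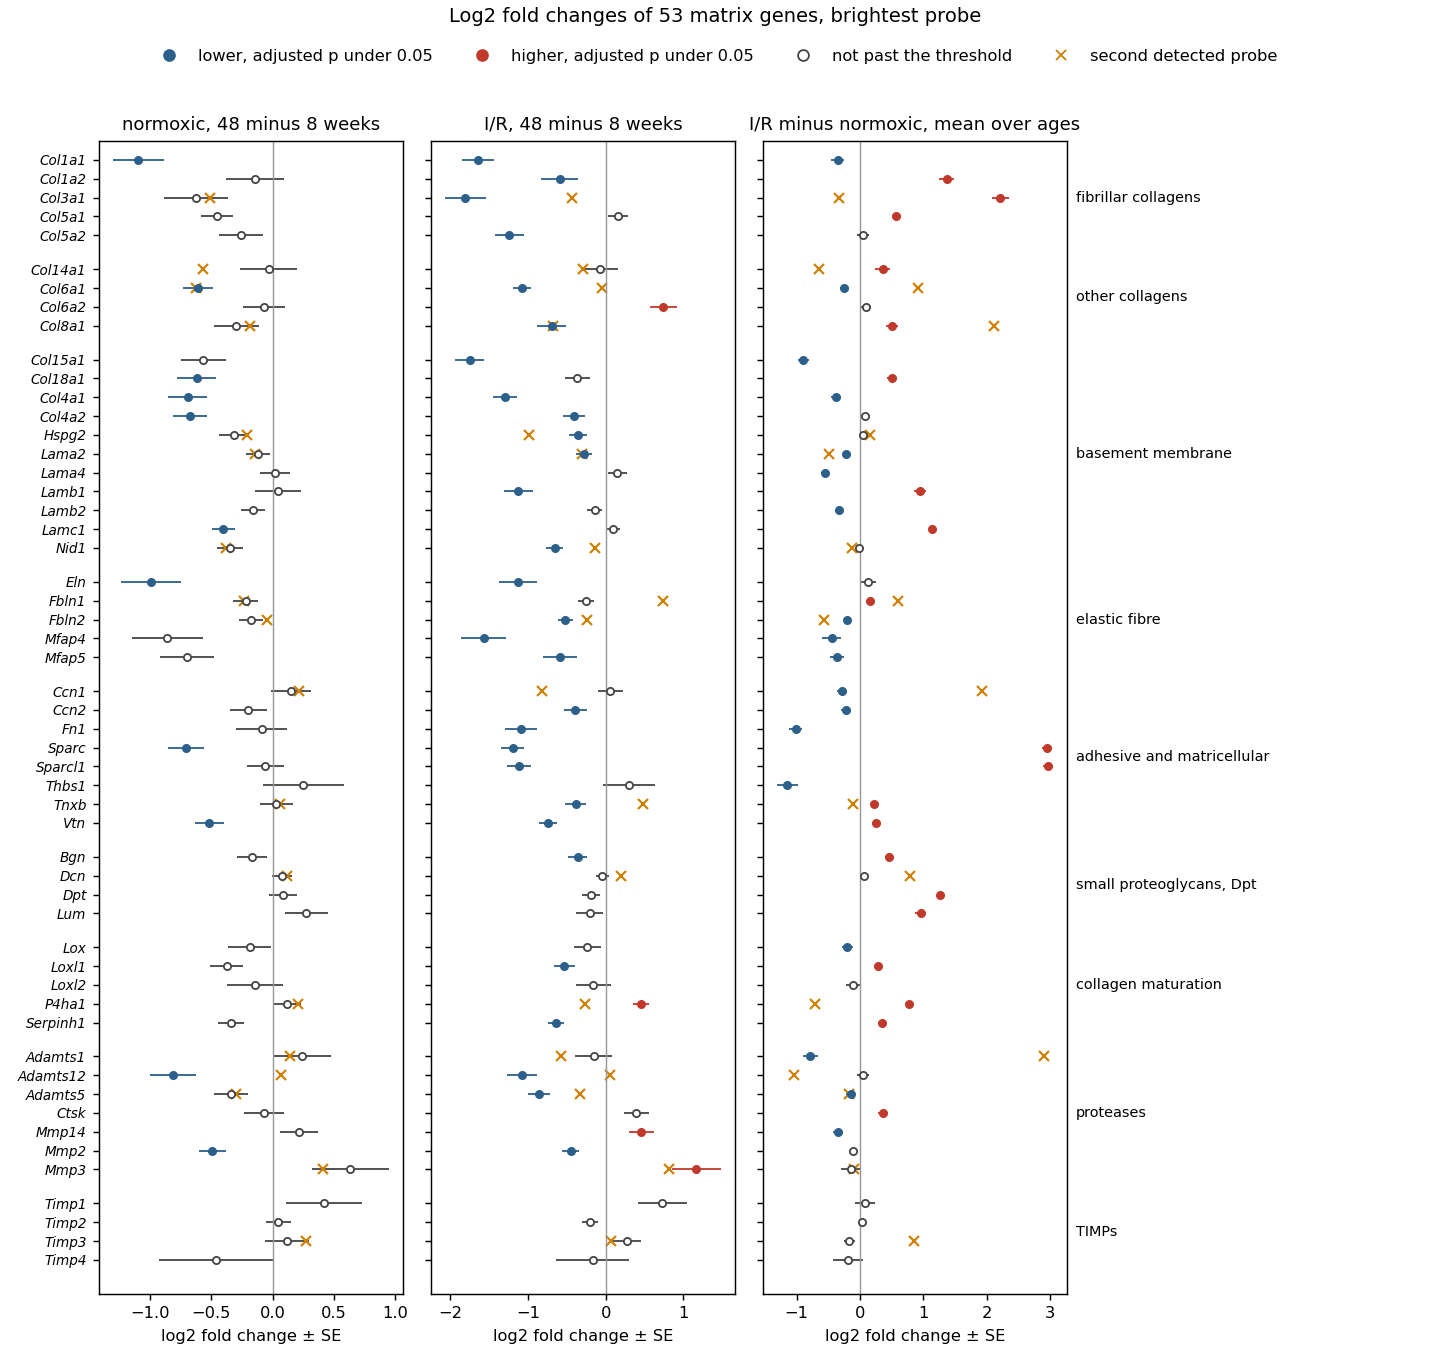
Log2 fold change ± SE (x axes) of the 53 measured matrix genes (y axis, grouped by role) for 48 minus 8 weeks in normoxic hearts, the same in I/R hearts, and I/R minus normoxic hearts as the mean over ages (24 hearts each). Filled points passed the test (red higher, blue lower), open points did not, and crosses are the second detected probe of 18 genes. All 11 filled points in the normoxic age panel are below 0, whereas the panel of I/R minus normoxic hearts has 20 above and 18 below 0.

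The lower levels were present by 32 weeks. At 32 against 8 weeks 12 of 53 matrix genes were lower and 0 were higher, against 1.57% of all genes past the threshold (0.775% lower and 0.795% higher), with a median log2 fold change of −0.21. In 12 genes the hearts of the 2 ages did not overlap, all lower at 32 weeks, against 1.95% of all genes. Of the 12 genes past the threshold, 8 were also lower at 48 weeks: Adamts12, Col1a1, Col4a1, Col4a2, Col6a1, Eln, Mmp2 and Vtn. Both comparisons use the same 6 hearts of 8 weeks, so they are not independent. At 32 weeks Col6a1 lay at 10.06 to 10.60 with a median of 10.30 (−0.71 ± 0.12, adjusted p = 0.000237; second probe −0.65), and Col4a1 at 11.09 to 11.73 with a median of 11.53 (−0.81 ± 0.16, adjusted p = 0.00217). These are close to the 48-week levels given above. Mmp2 gave −0.50 ± 0.11 (adjusted p = 0.0088), Eln −1.04 ± 0.24 (adjusted p = 0.0138) and Col1a1 −0.92 ± 0.21 (adjusted p = 0.0111).

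The other 4 genes passed at 32 weeks and not at 48. Ccn2, the connective tissue growth factor gene, had 11.80 to 12.64 with a median of 12.23 in 32-week hearts, against 12.41 to 13.23 with a median of 12.86 in 8-week hearts (−0.59 ± 0.15, adjusted p = 0.0287); it was above the threshold in 7 of 21 alternatives. Col15a1 gave −0.76 ± 0.19 (adjusted p = 0.0192), Mfap5 −0.89 ± 0.22 (adjusted p = 0.0237) and Fbln1 −0.41 ± 0.11 (adjusted p = 0.029; second probe −0.34, adjusted p = 0.296). The 48-week levels of Ccn2, 12.24 to 12.96 with a median of 12.65, lay nearer to the 8-week ones. The direct comparison of 48 with 32 weeks called 0 of 53 matrix genes and 0% of all genes (limma), with 5 matrix genes (Ccn1, Ccn2 and Mmp14 higher, Nid1 and P4ha1 lower) and 504 of all genes at an unadjusted p under 0.05. A difference between the 2 later ages was thus not shown for any of these genes.

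At 16 against 8 weeks 0 of 53 matrix genes passed (limma, 0.0408% of all genes, 0.0204% lower and 0.0204% higher). An unadjusted p under 0.05 was found for 17 matrix genes, of which 16 were lower at 16 weeks, against 561 of all 9811 genes in either direction. The median log2 fold change was −0.18 over the 53 genes and 0.00 over all genes, and the hearts of the 2 ages did not overlap in 2 matrix genes (Ctsk and Fbln1, both lower at 16 weeks), against 0.479% of all genes. Col4a1 gave −0.58 ± 0.16 (adjusted p = 0.332), Col6a1 −0.38 ± 0.12 (adjusted p = 0.417) and Col1a1 −0.52 ± 0.21 (adjusted p = 0.669). In Col1a1 the 16-week hearts spread over 8.26 to 9.54 with a median of 8.56, so that the highest lay above all 8-week hearts and some lay among those of 32 weeks. Timp3 was the gene of the 17 that was higher (0.40 ± 0.18, adjusted p = 0.818). Across the 4 ages 11 of 53 genes passed an F test in normoxic hearts, against 1.67% of all genes.

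**Figure D3:**
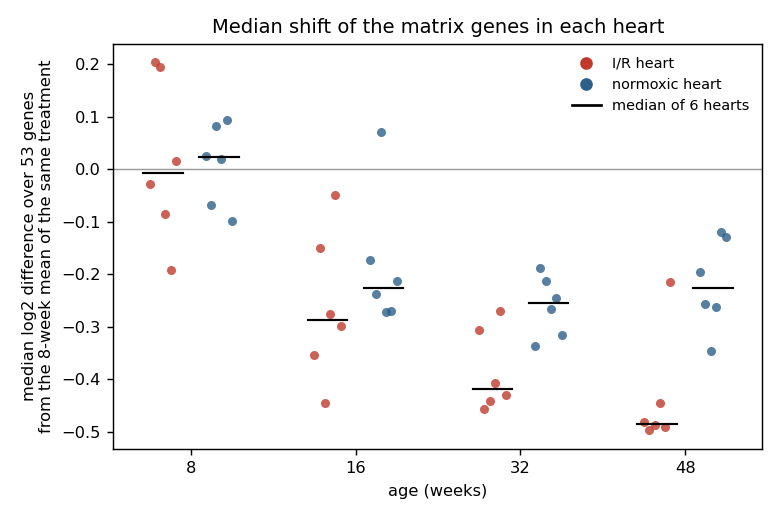
Median log2 difference over the 53 matrix genes (y axis) of each heart from the 8-week mean of its own treatment, by age in weeks (x axis). Points are hearts, I/R in red and normoxic in blue, and bars are the median of 6 hearts. At 48 weeks the I/R hearts lie between −0.50 and −0.22 and the normoxic hearts between −0.35 and −0.12.

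The shift was visible in single hearts. The median over the 53 genes, taken from the 8-week mean, was −0.35 to −0.12 in 48-week normoxic hearts (median of the 6 hearts −0.23) and −0.10 to 0.09 in 8-week hearts. At 16 weeks it was −0.27 to 0.07 (median −0.23), with 1 of 6 hearts above 0, and at 32 weeks −0.34 to −0.19 (median −0.26). By role, the 48-week medians were −0.45 for the 5 fibrillar collagens, −0.70 for the 5 elastic fibre genes and −0.35 for the 11 basement membrane genes. They were 0.08 for the 4 small proteoglycans with dermatopontin, −0.07 for the 7 proteases and 0.08 for the 4 TIMPs. These are descriptions of the chosen lists and carry no test.

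Markers of the cells that make matrix did not pass in the same comparison. Of 8 detected fibroblast markers outside the matrix list (Tcf21, Cd248, Pi16 and Clec3b were not detected), 0 were past the threshold at 48 or at 32 weeks, with median log2 fold changes of 0.01 and −0.09. Their summed level was 13.15 to 13.39 in 48-week and 13.06 to 13.52 in 8-week hearts (log2), which overlap. The summed level of 10 endothelial markers was 13.43 to 13.64 in 48-week and 13.60 to 13.85 in 8-week hearts, with 0 of 10 genes past the threshold and a median of −0.16. The part of cell numbers in the lower matrix transcripts was not tested.

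Other matrix-related genes passed with age in normoxic hearts at low counts, as did all genes (1.64% at 48 and 1.57% at 32 weeks). The lists held 5 measured other collagens, 28 other glycoproteins, 17 collagen-processing genes, 32 other proteases and inhibitors, 21 genes of the TGF-beta pathway and 19 matrix receptors. At 48 weeks 1 of 17 collagen-processing genes passed, the lysyl hydroxylase gene Plod1 (−0.46 ± 0.11, adjusted p = 0.0159), and 1 of 32 proteases and inhibitors, the secreted serine protease gene Htra1 (−0.34 ± 0.08, adjusted p = 0.0201). The other 4 lists had 0 genes past the threshold there. At 32 weeks the secreted glycoprotein gene Spon2 (−1.75, adjusted p = 0.0424) and the collagenase gene Mmp13 (−0.85, adjusted p = 0.0261, second probe −0.24) were lower, and Aebp1, which encodes a collagen-binding protein, was higher (0.55, adjusted p = 0.0138). The list of TGF-beta pathway genes had median log2 fold changes of −0.01 at 48 and −0.07 at 32 weeks, with 0 of 21 genes past the threshold at either age.

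In I/R hearts more matrix genes differed between 48 and 8 weeks, and so did more of all genes. Of 53 matrix genes 29 were lower and 4 were higher, against 39.3% of all genes past the threshold (20.7% lower and 18.6% higher). The median log2 fold change was −0.37 over the matrix genes and −0.01 over all genes. In 18 genes the hearts of the 2 ages did not overlap, each lower at 48 weeks, against 18.3% of all genes. RIN averaged 7.60 in the 48-week and 8.08 in the 8-week I/R hearts, and with RIN as a covariate 29 of 53 passed, 22 lower and 7 higher (share of all genes in that fit not given).

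Among fibrillar collagens Col1a1 had 7.41 to 7.74 with a median of 7.63 in 48-week I/R hearts, against 8.72 to 9.65 with a median of 9.37 in 8-week I/R hearts (−1.64 ± 0.21, adjusted p = 2.42e-08). Col3a1 had 5.83 to 7.34 with a median of 6.72 in 48-week I/R hearts, against 8.11 to 8.58 with a median of 8.49 in 8-week I/R hearts (−1.81 ± 0.26, adjusted p = 4.89e-07), while its second probe gave −0.43 (adjusted p = 0.163). In both genes the 2 ages did not overlap. Col5a2, a collagen V chain, was detected in 0 of 6 48-week and 5 of 6 8-week I/R hearts and was at least 1.36-fold lower (adjusted p = 5.1e-07). Col6a1 gave −1.08 ± 0.12 (adjusted p = 1.19e-09), but −0.04 on its second probe (adjusted p = 0.824). Its neighbour Col6a2 was higher, at 6.11 to 7.05 with a median of 6.66 in 48-week I/R hearts against 5.28 to 6.30 with a median of 5.80 in 8-week I/R hearts (0.74 ± 0.17, adjusted p = 0.000662; detected in 5 and 3 of 6 hearts).

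Among matrix genes detected on all 48 arrays the largest fall was that of Col15a1. It lay at 7.44 to 8.26 with a median of 7.67 in 48-week I/R hearts, against 9.04 to 9.87 with a median of 9.53 in 8-week I/R hearts (−1.75 ± 0.19, adjusted p = 4.18e-10). Col4a1 gave −1.30 ± 0.16 (adjusted p = 1.38e-08), with no overlap between the ages in either gene. Col4a2, which pairs with Col4a1 in the protein, gave −0.41 ± 0.14 (adjusted p = 0.0169, or 0.259 with RIN as a covariate). Lamb1, which entered the measured genes through I/R hearts only, was detected in 0 of 6 48-week and 5 of 6 8-week I/R hearts, at least 1.13-fold apart. Without the 8-week I/R hearts it would not have been measured, so its test is not used, although the count of lower genes above includes it. Lamc1 and Lama4 did not pass (0.09 and 0.15).

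Elastic fibre genes fell too: Mfap4 gave −1.57 ± 0.29 (adjusted p = 2.44e-05), Eln −1.12 ± 0.24 (adjusted p = 0.000254) and Fbln2 −0.52 ± 0.10 (adjusted p = 2.66e-05; second probe −0.24, adjusted p = 0.405). Mfap4 lay at 5.65 to 7.22 with a median of 6.45 in 48-week I/R hearts, against 7.53 to 8.80 with a median of 7.84 in 8-week I/R hearts. Sparc, Sparcl1 and Vtn fell without overlap (−1.20 ± 0.15, −1.12 ± 0.15 and −0.75 ± 0.12, adjusted p of 1.31e-06 or less). Fn1 was detected in 0 of 6 48-week and 5 of 6 8-week I/R hearts and was at least 1.15-fold lower (adjusted p = 4.59e-05). The collagen chaperone Serpinh1 had 12.22 to 12.50 with a median of 12.39 in 48-week I/R hearts, against 12.71 to 13.12 with a median of 13.07 in 8-week I/R hearts (−0.64 ± 0.10, adjusted p = 2.34e-06).

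Proteases went both ways in I/R hearts. Mmp3 was higher, at 6.41 to 8.05 with a median of 7.80 in 48-week I/R hearts against 5.50 to 6.92 with a median of 6.50 in 8-week I/R hearts (1.17 ± 0.32, adjusted p = 0.00276), and its second probe gave 0.81 (adjusted p = 0.00113). Mmp14 was higher by a smaller amount (0.46 ± 0.16, adjusted p = 0.0198, or 0.0562 without replicate 1 of the 48-week I/R hearts). The aggrecanase Adamts5 fell (−0.86 ± 0.14, adjusted p = 3.65e-06; second probe −0.33, adjusted p = 0.107), as did Mmp2 (−0.45 ± 0.11, adjusted p = 0.000942). The 4 TIMP genes did not pass; Timp1 came closest at 0.73 ± 0.31 (adjusted p = 0.0595). The remaining gene past the threshold and higher was P4ha1 (0.45), whose second probe gave −0.27. Smaller falls past the threshold were seen in Col8a1 (−0.69, second probe −0.68), Nid1 (−0.66, second probe −0.14), Mfap5 (−0.59), Col1a2 (−0.59), Loxl1 (−0.53), Ccn2 (−0.39), Tnxb (−0.39, second probe 0.48), Hspg2 (−0.35, second probe −0.98), Bgn (−0.36) and Lama2 (−0.28, second probe −0.31). Adamts12 fell by more (−1.08), with 0.06 on its second probe. The second probe of Tnxb was itself past the threshold in the opposite direction, so that a fall of this gene rests on its brighter probe. Col1a2 missed the threshold in 13 of 20 alternatives, Ccn2 in 11 of 21, Mfap5 in 7 of 21, Lama2 in 5 of 22, Bgn in 3 of 21, Tnxb in 2 of 22 and Hspg2 with RIN as a covariate (adjusted p = 0.189).

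At 16 weeks, where few genes differed in I/R hearts, 12 of 53 matrix genes were lower than at 8 weeks and 0 were higher, against 1.73% of all genes past the threshold (1.17% lower and 0.561% higher). In 2 of them (Col4a1 and Mmp14), against 1.02% of all genes, the ages did not overlap. The 12 genes were Adamts12, Col15a1, Col1a1, Col4a1, Col4a2, Col6a1, Eln, Hspg2, Mmp14, Nid1, Sparc and Vtn. Col4a1 had 10.76 to 11.85 with a median of 11.25 in 16-week I/R hearts, below all 8-week I/R hearts (−1.02 ± 0.16, adjusted p = 0.000222). The second probes of Col6a1 and Hspg2 gave −0.63 and −0.37, and that of Adamts12 0.13. At 32 weeks 26 of 53 were lower and 2 were higher, against 39.8% of all genes past the threshold (22.2% lower and 17.6% higher), with a median of −0.37. In 15 genes the hearts did not overlap, against 18.6% of all genes. Mfap4 gave −2.04 ± 0.29 at 32 weeks (adjusted p = 2.59e-07), Nid1 −0.81 ± 0.11 (adjusted p = 8.45e-08; second probe −0.29, adjusted p = 0.328) and Timp2 −0.38 ± 0.10 (adjusted p = 0.0028), the 1 TIMP gene past the threshold in an age comparison of I/R hearts. The higher genes were Col6a2 (0.64) and P4ha1 (0.27; second probe −0.04). The second probe of Fbln1 was higher (0.76, adjusted p = 1.04e-05) where the brighter was lower (−0.27, adjusted p = 0.0376).

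I/R hearts differed from normoxic hearts in most genes on the array, and matrix genes were split between higher and lower. As the mean over ages (24 hearts each), 20 of 53 matrix genes were higher and 18 lower in I/R hearts, against 78.9% of all genes past the threshold (34.6% higher and 44.4% lower). The share of 38 in 53 does not set the matrix genes apart from the rest. The 20 include Col1a2 and Lamb1, which were detected in I/R hearts only. Among genes detected on all 48 arrays 15 of 37 matrix genes were higher and 14 lower, against 82.1% of all such genes past the threshold. The median log2 fold change was 0.05 over the 53 genes and −0.07 over all genes. The 24 hearts of each treatment did not overlap in 5 matrix genes, each higher in I/R hearts (Dpt, Lamc1, P4ha1, Sparc and Sparcl1), against 10.7% of all genes in either direction. With RIN as a covariate 25 passed, 19 higher and 6 lower. The share of all genes in that fit is not given, so this shift is not read as particular to matrix genes. The 15 genes that then missed the threshold were Adamts5, Ccn1, Ccn2, Col14a1, Col1a1, Col4a1, Col6a1, Fbln1, Fbln2, Lama2, Lox, Mfap4, Mfap5, Mmp14 and Tnxb. Of the 8 fibroblast markers outside the matrix list 2 were higher and 5 lower, and of 10 endothelial markers 2 were higher and 6 lower; their part in the matrix values was not tested.

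Sparc and Sparcl1 had the largest increases, and other fibril-associated genes were also higher. Sparc had 8.29 to 10.10 with a median of 9.37 in 24 I/R hearts, against 5.76 to 7.04 with a median of 6.40 in 24 normoxic hearts, with no overlap (2.95 ± 0.07, a 7.73-fold difference, adjusted p = 1.35e-33). Its relative Sparcl1 had 7.53 to 9.36 with a median of 9.02 in I/R hearts, against 5.50 to 6.59 with a median of 5.86 in normoxic hearts, again without overlap (2.97 ± 0.08, adjusted p = 2.72e-33; detected in 24 of 24 I/R and 17 of 24 normoxic hearts). Dpt, whose product binds decorin and collagen, had 9.68 to 10.64 with a median of 10.25 in I/R hearts and 8.60 to 9.26 with a median of 8.98 in normoxic hearts (1.26 ± 0.06, adjusted p = 1.18e-24). Lum gave 0.96 ± 0.09 (adjusted p = 3.24e-13) and Bgn 0.45 ± 0.06 (adjusted p = 1.12e-08). No second probe was detected for these 5 genes. The median log2 difference of the 4 small proteoglycans with dermatopontin was 0.70, while decorin (Dcn) gave 0.05 ± 0.04 (adjusted p = 0.224) on its brighter and 0.79 (adjusted p = 1.56e-14) on its second probe.

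**Figure D4:**
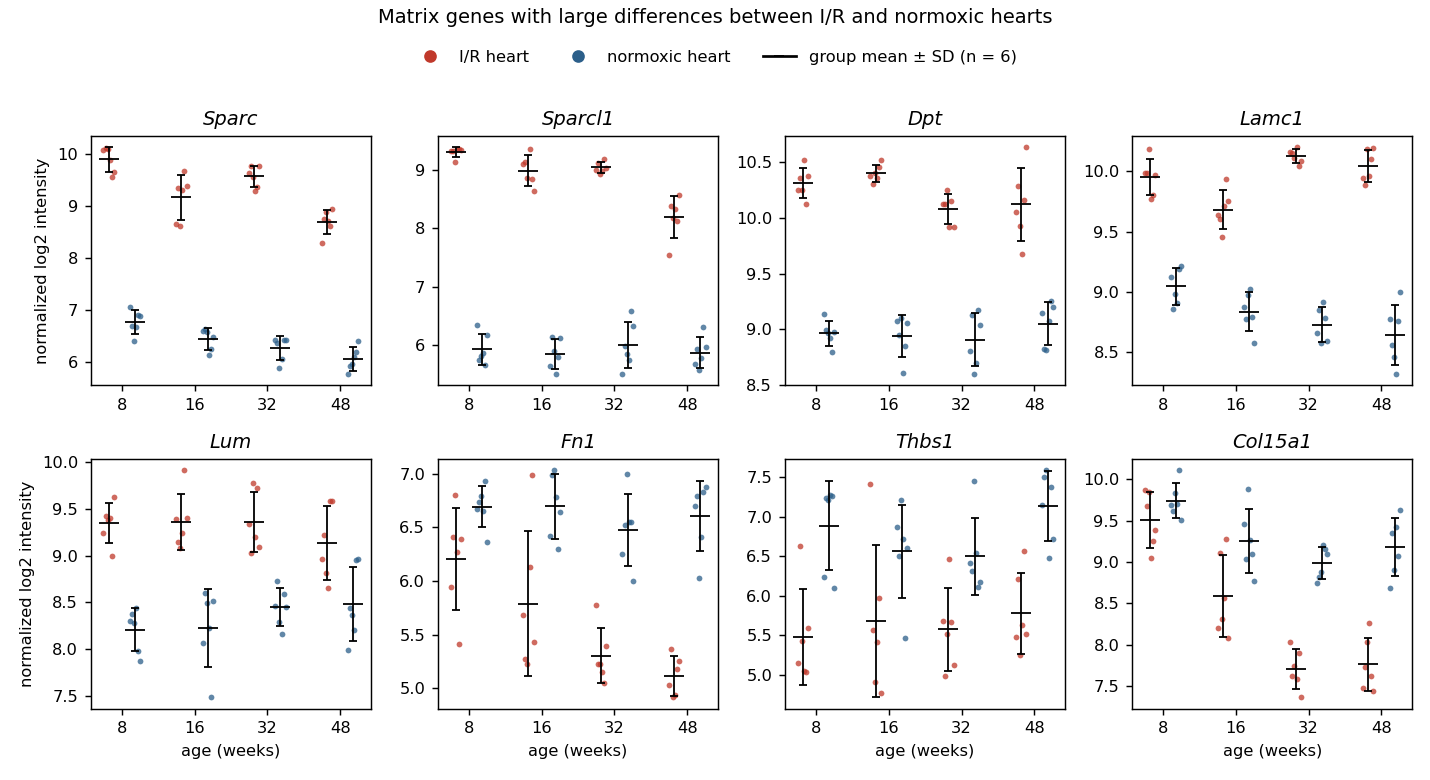
Normalized log2 intensity (y axis) of 8 matrix genes by age in weeks (x axis). Each point is a heart, I/R in red and normoxic in blue, and bars are the group mean ± SD (n = 6). Sparc, Sparcl1, Dpt, Lamc1 and Lum are higher in I/R hearts at each age, and Fn1, Thbs1 and Col15a1 have lower I/R means at each age.

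Fibrillar collagen probes gave mixed results. Col1a2 was detected in 19 of 24 I/R and 0 of 24 normoxic hearts, at least 1.63-fold apart; since it entered the measured genes through I/R hearts only, its test is not used. Col1a1, which encodes the partner chain, was lower in I/R hearts (−0.35 ± 0.10, adjusted p = 0.00234; 0.041 with RIN as a covariate, adjusted p = 0.847). Col3a1 was 2.21 ± 0.13 higher on its brighter probe (adjusted p = 9.42e-20), detected in 22 I/R and 6 normoxic hearts, but −0.33 on its second probe (adjusted p = 0.00618). Col5a1 was higher (0.57 ± 0.07, adjusted p = 1.66e-10), at 8.34 to 9.54 with a median of 9.23 in I/R hearts against 8.06 to 9.19 with a median of 8.58 in normoxic hearts, which overlap.

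Laminin chains moved in opposite directions, with 1 detected probe for each chain except Lama2. Lamc1 had 9.46 to 10.20 with a median of 9.98 in I/R hearts, against 8.32 to 9.21 with a median of 8.82 in normoxic hearts, without overlap (1.14 ± 0.05, adjusted p = 1.51e-25). Lama4 was lower, at 7.32 to 8.09 with a median of 7.65 in I/R hearts, against 7.78 to 8.73 with a median of 8.16 in normoxic hearts (−0.55 ± 0.06, adjusted p = 6.67e-11). Lamb2 gave −0.33 ± 0.05 (adjusted p = 7.25e-08) and Lama2 −0.22 ± 0.05 (adjusted p = 0.000115, or 0.0595 with RIN as a covariate; second probe −0.49). Lamb1 was detected in 10 of 24 I/R and 0 of 24 normoxic hearts, too dim for a fold and, like Col1a2, measured through I/R hearts only. Of the collagen IV pair, Col4a1 was lower (−0.38 ± 0.08, adjusted p = 3.18e-05, or 0.237 with RIN as a covariate) and Col4a2 did not pass (0.08 ± 0.07, adjusted p = 0.27), while Col18a1 was higher (0.51 ± 0.08, adjusted p = 1.79e-07).

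On the brightest probe the largest decreases were in adhesive glycoproteins and in Col15a1. Thbs1, an adhesive inhibitor of vessel growth, had 4.77 to 7.42 with a median of 5.51 in I/R hearts, against 5.46 to 7.59 with a median of 6.72 in normoxic hearts (−1.15 ± 0.17, adjusted p = 4.26e-08; detected in 6 of 24 I/R and 23 of 24 normoxic hearts). Fn1 was detected in 7 of 24 I/R and 24 of 24 normoxic hearts (−1.01 ± 0.10, adjusted p = 5.94e-12). It was at least 1.54-fold lower in I/R hearts at 32 weeks and at least 1.52-fold lower at 48 weeks, where 0 of 6 I/R hearts detected it. Col15a1 gave −0.90 ± 0.09 (adjusted p = 6.96e-12). Ccn2 was lower by less (−0.23 ± 0.08, adjusted p = 0.0064, or 0.597 with RIN as a covariate). Vtn and Tnxb were higher (0.25 and 0.23, with −0.12 on the second probe of Tnxb), but with median centring neither passed (adjusted p = 0.0942 for Vtn and 0.237 for Tnxb). The immediate early matricellular gene Ccn1 and the inducible protease gene Adamts1 were lower on their brighter probes (−0.28 and −0.78) and higher on their second probes (1.92 and 2.91), with every adjusted p at 0.00172 or less.

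Among elastic fibre genes Fbln1 was higher and Mfap4, Mfap5 and Fbln2 were lower, but none of the 4 passed with RIN as a covariate (adjusted p of 0.0641 to 0.405), and Fbln1 passed neither with median centring nor in the authors' values. Mfap4 had 5.29 to 8.80 with a median of 7.16 in I/R hearts, against 6.55 to 8.36 with a median of 7.47 in normoxic hearts, which overlap (−0.45 ± 0.14, adjusted p = 0.0047). Mfap5 gave −0.37 ± 0.11 (adjusted p = 0.00277), and Eln did not pass (0.13 ± 0.12, adjusted p = 0.341). Among the genes that mature collagen, Serpinh1 was higher, at 12.22 to 13.12 with a median of 12.59 in I/R hearts against 11.82 to 12.76 with a median of 12.28 in normoxic hearts (0.34 ± 0.05, adjusted p = 8.02e-08). Loxl1 was higher (0.28 ± 0.07, adjusted p = 0.000235, or 0.0599 with median centring), its relative Lox was lower (−0.20 ± 0.09, adjusted p = 0.038, or 0.187 with RIN as a covariate) and Loxl2 did not pass (−0.11 ± 0.11).

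Among the other proteases, 1 rose and 2 fell. Ctsk, a collagen-degrading cathepsin, was higher, at 6.50 to 8.06 with a median of 7.39 in I/R hearts against 6.58 to 7.44 with a median of 6.93 in normoxic hearts (0.37 ± 0.08, adjusted p = 8.28e-05). Mmp14 was lower (−0.35 ± 0.08, adjusted p = 0.000131, or 0.099 with RIN as a covariate), Adamts5 too (−0.15 ± 0.07, adjusted p = 0.049, up to 0.0793 in the 4 of 9 alternatives where it missed the threshold), and Mmp2 and Mmp3 did not pass (−0.11 ± 0.05 and −0.14 ± 0.16). The 4 TIMP genes had differences of 0.08 ± 0.16 for Timp1, 0.04 ± 0.05 for Timp2, −0.17 ± 0.09 for Timp3 and −0.19 ± 0.24 for Timp4, with adjusted p of 0.0856 or more, but the second probe of Timp3 gave 0.85 (adjusted p = 1.83e-08).

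**Figure D5:**
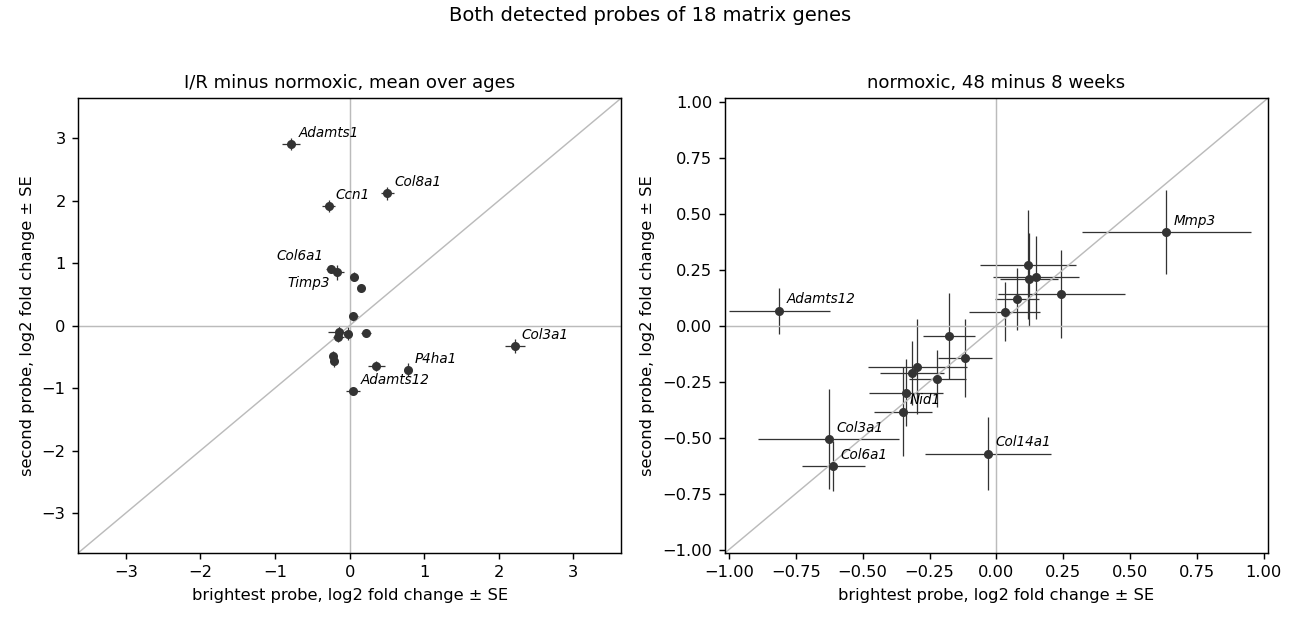
Log2 fold change ± SE of the second detected probe (y axis) against that of the brightest probe (x axis) for 18 matrix genes, for I/R minus normoxic hearts as the mean over ages and for 48 minus 8 weeks in normoxic hearts. The diagonal marks equal values. Points of the age comparison lie near the diagonal apart from Adamts12 and Col14a1, whereas in the I/R comparison Adamts1 and Ccn1 are below 0 on one probe and at 2.91 and 1.92 on the other.

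The probes of 1 gene often gave different I/R values. Of the 18 matrix genes with 2 detected probes, 9 had the same sign on both in the mean I/R comparison, and of 11 with both probes past the threshold 5 had the same sign. In the comparison of 48 with 8 weeks in normoxic hearts 17 of 18 had the same sign. Just 2 of these 18 genes had passed there on the brighter probe. Col6a1 was past the threshold on both probes, and Adamts12 had the opposite sign on its second probe. The shared signs are thus mostly those of genes that did not pass. Col8a1 rose on both probes (0.51 and 2.12) and Fbln1 too (0.16 and 0.61), while Fbln2, Lama2 and Adamts5 fell on both. Col6a1, P4ha1 and Col14a1 passed in opposite directions (−0.26 and 0.91, 0.78 and −0.71, 0.36 and −0.64). What sets the 2 probes of a gene apart was not tested.

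By age, 18 matrix genes were higher and 6 lower in I/R than in normoxic hearts at 8 weeks (14 and 11 with median centring in place of quantile normalization), against 52.9% of all genes past the threshold (22.3% higher and 30.6% lower). At 16 weeks 17 were higher and 8 lower (17 and 13 with median centring), against 54.3% (22.3% higher and 32% lower). At 32 weeks 14 were higher and 15 lower, against 65.6% (27.6% higher and 38% lower). At 48 weeks 14 were higher and 14 lower, against 63.4% (29.2% higher and 34.2% lower). The shares of all genes are those with quantile normalization. The matrix gene counts at 8, 16 and 32 weeks include Col1a2 and Lamb1, and that at 48 weeks Col1a2. Both genes entered the measured genes through I/R hearts only, so their tests are not used. The hearts of the 2 treatments did not overlap in 13 matrix genes at 8 weeks, 9 at 16, 18 at 32 and 14 at 48 weeks, against 29.7%, 29.6%, 40.2% and 37.2% of all genes. The normoxic hearts of each age enter both this comparison and the age comparison above.

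The I/R difference varied with age in 15 of 53 matrix genes (F test, adjusted over all genes), against 29.2% of all genes, a share close to the background. Between 48 and 8 weeks 8 matrix genes had a lower and 3 a higher I/R difference, 11 in all, against 21.4% of all genes (11.1% lower and 10.3% higher). The 8 were Col15a1, Col3a1, Col4a1, Col5a2, Col6a1, Fn1, Lamb1 and Sparcl1, and the 3 were Col5a1, Col6a2 and Lamc1, but the second probes of Col3a1 and Col6a1 gave 0.08 and 0.59. Both counts with Lamb1, 15 and 8, include a gene measured through I/R hearts only, whose test is not used. For Col15a1 the I/R minus normoxic difference was −0.23 ± 0.19, −0.66 ± 0.19, −1.28 ± 0.19 and −1.42 ± 0.19 at 8, 16, 32 and 48 weeks (adjusted p = 0.000997 for the change with age). For Lamc1 it was 0.91 ± 0.09, 0.85 ± 0.09, 1.40 ± 0.09 and 1.40 ± 0.09 (adjusted p = 0.000373). The I/R deficit of Col15a1 was therefore larger at the 2 later ages, and the I/R excess of Lamc1 too.

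Sparcl1 had the reverse order, with an I/R excess of 3.38 ± 0.15, 3.14 ± 0.15, 3.04 ± 0.15 and 2.32 ± 0.15 at the 4 ages (adjusted p = 0.000897). Adamts5 had differences of 0.21, 0.20, −0.69 and −0.31 (adjusted p = 0.00055; 0.532 on the second probe), and Mmp14 had −0.45, −0.90, 0.16 and −0.21 (adjusted p = 0.00227). In Mmp14 the I/R hearts of 16 weeks stood lowest, at 7.12 to 7.75 with a median of 7.43, against 7.73 to 8.91 with a median of 8.34 in normoxic hearts. Col5a1 had an I/R excess of 0.29, 0.30, 0.80 and 0.90 (adjusted p = 0.0102), which was larger at the later ages, while Fn1 had differences of −0.49 at 8 and −0.91 at 16 weeks, and was detected in 0 of 6 I/R hearts at 32 and at 48 weeks (adjusted p = 0.0417, but above the threshold in 4 of 7 alternatives, up to 0.331). Col6a2 had differences of −0.38, −0.09, 0.40 and 0.44 (adjusted p = 0.0187) and Ccn2 of −0.40, 0.14, −0.08 and −0.59 (adjusted p = 0.0302), both changing sign between ages. Nid1, Fbln2 and Tnxb also varied with age on their brighter probes, with adjusted p of 0.00348, 0.00322 and 0.0221, but not on their second probes (0.858, 0.538 and 0.379). Sparc, Col5a2 and Lamb1 complete the 15 (adjusted p of 0.0261 and 0.00643 for Sparc and Col5a2). Lamb1 entered the measured genes through I/R hearts only, so its test is not used. With median centring Col5a2 did not pass (0.285), nor did Lamb1. Sparc was higher in I/R hearts at every age, by 3.13, 2.72, 3.30 and 2.64. The mean RIN of I/R hearts differed over the same ages, as given above, and with RIN as a covariate 15 of 53 genes passed (share of all genes in that fit not given).

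Other matrix-related genes were also split in I/R against normoxic hearts. As the mean over ages, 3 of 5 other collagens were higher and 0 lower, 8 of 28 other glycoproteins higher and 10 lower, 6 of 17 collagen-processing genes higher and 8 lower, and 15 of 32 other proteases and inhibitors higher and 10 lower. Of the TGF-beta pathway 9 of 21 were higher and 11 lower, and of matrix receptors 6 of 19 higher and 9 lower. Over all genes 34.6% were higher and 44.4% lower in this comparison, so these splits are read as no more than the background. The small proteoglycan gene Ogn rose on both probes (2.25 ± 0.07, second probe 1.70), and the disintegrin protease gene Adam9 rose on its single detected probe (2.18 ± 0.07). The receptor genes Bcam, for laminin, and Itga5, for fibronectin, fell (−2.05 ± 0.09, second probe −1.72, and −1.13 ± 0.09), and so did Tgfb1 (−1.79 ± 0.11). The procollagen protease enhancer Pcolce2 and the lysosomal protease Ctsb were higher on the brighter probe (1.96 and 1.37) and at −0.52 and −0.04 on the other.

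In I/R hearts of 48 against 8 weeks, 1 of 5 other collagens, 7 of 28 other glycoproteins, 7 of 17 collagen-processing genes, 8 of 32 other proteases and inhibitors, 6 of 21 TGF-beta pathway genes and 9 of 19 matrix receptors were lower. The numbers higher were 0, 4, 3, 1, 2 and 4 in the same lists. Over all genes 20.7% were lower and 18.6% higher, and nothing particular to the lists is read from their counts. Itga5 (−1.96 ± 0.18) and the elastic fibre gene Emilin2 (−1.95 ± 0.18) fell, Plod1 fell (−0.72 ± 0.11) and its relative Plod3 rose (0.58 ± 0.10), with adjusted p of 5.13e-06 or less. Ltbp4, which stores TGF-beta in elastic fibres, fell on both probes (−1.02 and −0.64), Tgfb1 fell (−1.34 ± 0.23, adjusted p = 6.02e-06) and Aebp1 rose (1.19 ± 0.13, adjusted p = 7.36e-10). Of 8 fibroblast markers outside the matrix list 1 was higher and 2 were lower, and their summed level was 12.89 to 13.45 in 48-week and 13.09 to 13.64 in 8-week I/R hearts, which overlap. Of 10 endothelial markers 2 were higher and 5 lower (median −0.32), with summed levels of 13.18 to 13.42 in 48-week and 13.25 to 13.83 in 8-week I/R hearts. Of 7 detected macrophage markers 0 were higher and 2 lower, and all 7 were below 0 (median −0.29), with summed levels of 11.18 to 12.21 in 48-week and 11.71 to 12.27 in 8-week I/R hearts. The part of these cells in the lower matrix transcripts of I/R hearts was not tested.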

How the data were processed

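Each of the 48 arrays measured 1 heart. The authors deposited probe intensity values that are not normalized, per the file headers, beside a detection score, a fraction that rises with the signal (lowest rank correlation 0.995) and was read as 1 minus the detection p-value. The authors' processed values, deposited on what appears to be a log2 scale with normalization not stated, served as an alternative; per the submitters' processing notes lumi was used, version not given.

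Normexp background correction used the detection p-values, with an offset of 16, before quantile normalization and the log2 transform (limma 3.58.1, R 4.3.3). Of 46624 probes, 17624 were detected (p under 0.05 on at least 6 arrays), and the brightest probe per symbol gave 9811 genes; 4 lines without an identifier were left out. limma (lmFit, eBayes) fitted 8 group means over all 48 arrays, two-sided, with Benjamini-Hochberg adjustment over all genes within each comparison and a threshold of 0.05. Where no array of a group detected a probe, the fold is "at least" that against the dimmest detectable signal of those arrays. The number of hearts limits the precision. Hearts with the same replicate number in 2 groups were checked for pairing: of 168 such pairs 12 had deviations correlated above 0.1 (median r 0.0006). Among pairs with different numbers it was 40 of 840 (median r 0.0004). The numbers were therefore taken only to name hearts, and a shared slide or day was not tested.

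On simulated data for 48 against 8 weeks in normoxic hearts (9811 genes), 99 of 100 genes shifted by 1 log2 unit and 48 of 100 shifted by 0.5 were recovered, and 7 of 9611 unchanged genes were called. The members, lists and tests were chosen with earlier results of these data known. Within each role class the named genes are those past the threshold and the 2 with the smallest p, and in other lists up to 3 per comparison; further members complete their class. Alternatives were no background correction, median centring, the authors' values, a stricter filter and no filter on dim probes, RIN as a covariate, array weights, fits of only the compared groups, a replicate block, the second probe and leaving out each heart.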

Additional observations from a re-analysis of the deposited data

Results flagged for a closer look

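In 19 of 424 groups of 6 hearts (53 genes in 8 groups) the highest or lowest heart stood apart from the other 5 by Dixon's test, which chance alone gives in about 1 group in 20. The flags fell on 15 genes. Timp1 was at 11.16 in replicate 5 of the 16-week I/R hearts, with the next heart at 8.65, and the same heart stood high in Lox (7.83, next 7.29). Thbs1 stood high in replicate 2 of the 8-week I/R hearts (6.62) and in replicate 3 of the 32-week normoxic hearts (7.45). Tnxb stood high in replicate 1 of the 32-week I/R hearts (9.07), in replicate 6 of the 48-week normoxic hearts (8.97) and in replicate 6 of the 8-week normoxic hearts (9.61). That last heart stood low in Mmp14 (7.79), as did replicate 6 of the 32-week I/R hearts (7.74).

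In 8-week I/R hearts replicate 4 stood low in Hspg2 (10.56) and Serpinh1 (12.71), replicate 5 in Col5a2 (5.64) and replicate 3 in Sparcl1 (9.13). Bgn stood low in replicate 1 of the 16-week I/R hearts (8.92). In 32-week normoxic hearts replicate 4 stood low in Adamts12 (4.99), replicate 5 stood high in Eln (6.97) and Col1a2 (5.08, where no normoxic heart detected the probe) and replicate 2 stood high in Mfap5 (8.06). Mfap4 stood high in replicate 5 of the 48-week normoxic hearts (7.94).

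For 15 genes the I/R minus normoxic difference varied between ages by limma's F test. The adjusted p was 0.000373 for Lamc1, 0.00055 for Adamts5, 0.000897 for Sparcl1, 0.000997 for Col15a1 and 0.00227 for Mmp14. It was 0.00322 for Fbln2, 0.00348 for Nid1, 0.00413 for Lamb1, 0.00643 for Col5a2 and 0.0102 for Col5a1. It was 0.0187 for Col6a2, 0.0221 for Tnxb, 0.0261 for Sparc, 0.0302 for Ccn2 and 0.0417 for Fn1. Of these, Lamb1, Col5a2 and Fn1 were detected in 0 of 6 hearts of at least 1 group. Lamb1 was measured through I/R hearts only, so its test is not used.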

How the results depend on the processing

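Of the 53 matrix genes, the counts past the threshold in normoxic hearts were 11 at 48 weeks, 12 at 32, 0 at 16 and 11 over all ages. With array weights they were 18 at 48 weeks, 2 at 16 and 17 over all ages, and with median centring 1 at 16 weeks. Among the 18 second probes 1 passed at 48 weeks, 1 at 32 and 1 over all ages, and 7 at 48 weeks in I/R hearts (33 of 53 on the brighter probes). For I/R against normoxic hearts 15 second probes passed as the mean over ages, 11 at 8, 13 at 16, 13 at 32 and 12 at 48 weeks, and 5 for the difference by age; fewer genes were tested there. With RIN as a covariate 25 in place of 38 passed as the mean over ages. Counts over all genes are given below only for leaving out single hearts. The other counts are therefore not read as particular to matrix genes.

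Leaving out single hearts gave 9 to 12 genes at 48 weeks and 8 to 13 at 32 weeks in normoxic hearts, and 30 to 35 at 48 weeks in I/R hearts. Over all genes the same fits called 121 to 164, 94 to 206 and 3612 to 3814. The count of 8 came without replicate 4 of the 32-week normoxic hearts. With the replicate block, which the pairing check does not back, the counts were 11, 12, 0 and 9 in normoxic hearts (48, 32, 16 weeks and all ages) and 33 at 48 weeks in I/R hearts, and for I/R against normoxic hearts 37 as the mean, 23, 24, 29 and 27 at the 4 ages and 14 by age.

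Signs turned on the second probe for Adamts12 (0.067 at 48 and 0.13 at 32 weeks in normoxic hearts, 0.055 at 48 weeks in I/R hearts), P4ha1 (−0.27) and Tnxb (0.48) at 48 weeks in I/R hearts. For I/R against normoxic hearts they turned for Adamts1 (2.91), Ccn1 (1.92), Col6a1 (0.91), P4ha1 (−0.71), Col14a1 (−0.64), Col3a1 (−0.33) and Tnxb (−0.12), and with RIN as a covariate for Col1a1 (0.041). The cause was not tested. In normoxic hearts at 48 weeks Col1a1, Col4a1, Col4a2, Col6a1 and Mmp2 were past the threshold under every alternative run, whereas the other 6 genes were not in at least 1. Signal over background limits Lamb1, Col1a2, Adamts12, Col5a2, Col3a1, Thbs1 and Fn1, which were detected on 10 to 31 of 48 arrays.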
